A study of Mus musculus with 6 samples.

Results

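The FOXO transcription factors of the mouse are encoded by Foxo1, Foxo3, Foxo4 and Foxo6, and their transcripts were followed in the uterus after conditional deletion of Foxo1. The members were chosen by gene symbol, which gave 4 of the 23420 genes measured, and 0 other symbols began with Foxo. RNA-seq was made from 6 uterine libraries, 3 for each genotype, and each library held RNA of 2 pooled females. The females were C57BL/6J, 8 weeks old, and had been mated with vasectomized males, so that uteri were taken on pseudopregnancy day (PPD) 4.5 without embryos. Control mice were Foxo1f/f, with both Foxo1 alleles floxed and no Cre. Foxo1d/d mice carried the same floxed alleles and 1 PgrCre allele (PgrCre/+ Foxo1f/f), in which Cre is expressed from the Pgr locus. Deletion was therefore limited to cells that express or have expressed Pgr, the other cells of the uterus kept the floxed gene, and 1 Pgr allele carried Cre in Foxo1d/d alone. Summed over the 3 libraries, 78375043 counts were made in the controls and 81773890 in Foxo1d/d. Every level below is the authors' mean count of a genotype divided by the total of its column, in counts per 1000000 (CPM). Values of single libraries were not analysed here, so no difference could be set against the spread between pools and no test was made. The 95% intervals are exact intervals of the summed counts and cover counting error only.

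FOXO proteins bind DNA through a forkhead domain and activate genes for cell cycle arrest, apoptosis, stress resistance and fasting metabolism. Insulin and growth factor signals act through PI3K and AKT, which phosphorylates FOXO proteins, and 14-3-3 proteins then hold them in the cytoplasm. In the endometrium FOXO1 works with the progesterone receptor during decidualization. The floxed exon of Foxo1 is exon 2 of its main transcript on GRCm38. The junction of both major coding exons lies inside the coding sequence of the forkhead domain in all 4 genes. The 30 coding bases on each side are shown because they mark where exon 2 begins in the spliced Foxo1 transcript. They also show how alike the paralogs are there. The ends of the deleted stretch in the genome are not given in the sources used here. Capitals mark the exon after the junction, which in Foxo1 is the deleted one.
Foxo1: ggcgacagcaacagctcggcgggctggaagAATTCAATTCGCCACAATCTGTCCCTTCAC
Foxo3: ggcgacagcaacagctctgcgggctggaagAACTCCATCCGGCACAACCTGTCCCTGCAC
Foxo4: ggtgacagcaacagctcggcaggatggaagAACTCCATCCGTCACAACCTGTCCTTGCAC
Foxo6: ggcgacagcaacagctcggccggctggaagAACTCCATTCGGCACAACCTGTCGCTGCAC

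The Foxo1 bases lie on the plus strand at chr3:52269393-52269422 (exon 1) and chr3:52345039-52345068 (exon 2). Those of Foxo3 lie on the minus strand at chr10:42274816-42274845 (exon 2) and chr10:42197872-42197901 (exon 3). Those of Foxo4 lie on the plus strand at chrX:101255244-101255273 (exon 1) and chrX:101258177-101258206 (exon 2), and those of Foxo6 on the minus strand at chr4:120286839-120286868 (exon 1) and chr4:120269153-120269182 (exon 2). Of the 60 bases, 53 were the same as in Foxo1 in Foxo3, 50 in Foxo4 and 53 in Foxo6. The stretch before the junction was the more alike, with 29, 27 and 29 of 30 bases shared with Foxo1, against 24, 23 and 24 after it. The junction followed a whole codon in each gene, after 207 codons in Foxo1, 206 in Foxo3, 151 in Foxo4 and 138 in Foxo6.

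**Figure D1:**
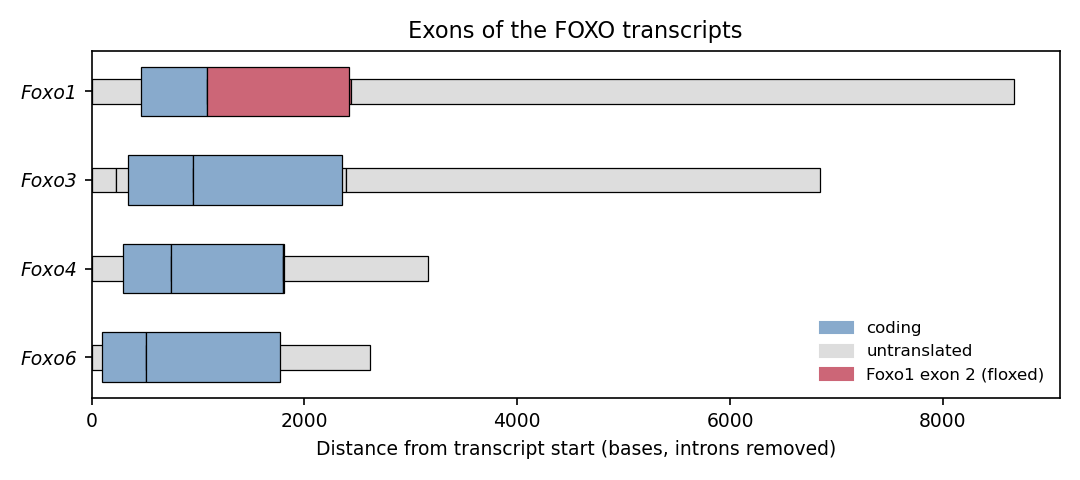
Exons of the main transcript of each FOXO gene, drawn to scale as distance in bases from the transcript start with introns removed. High boxes are coding, low boxes untranslated, and exon 2 of Foxo1, in red, holds 68.3% of the coding bases but 15.6% of the transcript.

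Foxo1, the deleted gene, was examined first, since it checks the genotype labels. The authors' mean was 3941 counts in the controls and 1456 in Foxo1d/d. Scaled, Foxo1 stood at 151 CPM in Foxo1f/f (148 to 154) and at 53.4 CPM in Foxo1d/d (51.8 to 55.0). The direction was that of the labels, and 35.4% of the control level remained (34.2% to 36.7%), which is 2.82-fold lower with a log2 ratio of knockout to control of -1.50 (-1.55 to -1.45). Counts averaged 10 or more over both genotypes in 15696 genes, called well-counted here. Of these, 103 had a ratio as low as that of Foxo1 or lower, with Foxo1 among them. Of the 1488 genes with a CPM in the controls at or above that of Foxo1, which is 1 of them, 6 had such a ratio.

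The count of a gene takes in reads from all of its exons, and the deletion removes only exon 2. This exon has 1352 of the 8665 bases of the Foxo1 exons, so 84.4% of the exon length lies outside it. The authors counted reads on RefSeq genes, and within the shorter RefSeq span of Foxo1 the share outside exon 2 was 75.6% of 5552 bases. The 35.4% of counts that remained lay below both shares. Reads of exon 2 and of the other exons are not separated in these counts, so complete transcripts of cells without deletion and transcripts that lack exon 2 cannot be told apart. In bulk tissue, fewer cells of a type and less RNA per cell cannot be told apart either.

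The paralogs keep intact genes in both genotypes, and the question was whether any of them was higher where Foxo1 was lost. Foxo3, the widely expressed paralog known for its role in keeping ovarian follicles dormant, had an authors' mean of 1070 counts in the controls and 838 in Foxo1d/d. Its level was 41.0 CPM (39.6 to 42.4) against 30.7 CPM (29.6 to 32.0), with a log2 ratio of -0.41 (-0.49 to -0.34), or 75.0% of the control. Foxo3 was thus lower and not higher in Foxo1d/d, and 987 of the 15696 well-counted genes, or 6.29%, had a ratio as low or lower. Foxo4, an X-linked paralog, had authors' means of 2364 and 2249 counts. These gave 90.5 CPM (88.4 to 92.6) in the controls and 82.5 CPM (80.6 to 84.5) after deletion, with a log2 ratio of -0.13 (-0.18 to -0.08). A ratio as low or lower was held by 22.5% of well-counted genes. Foxo6, best known from brain, had authors' means of 24.7 and 31.3 counts and levels of 0.944 CPM (0.741 to 1.19) and 1.15 CPM (0.929 to 1.41). Its log2 ratio was 0.28 (-0.17 to 0.74), and a difference was not detectable at this depth.

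A gene was counted as past the threshold where its scaled means differed by over 1.5-fold. By this rule 1 of 4 FOXO genes, Foxo1, was lower in Foxo1d/d, against 3.63% of the 15696 well-counted genes, and 0 of 4 were higher, against 5.57%. The median log2 ratio of all those genes was 0.02 and the median absolute log2 ratio 0.14. Foxo3 and Foxo4 were below 0 and Foxo6 above 0 under each of the 5 alternative settings for scaling and pseudocount, and Foxo1 remained the only FOXO gene past 1.5-fold under each of them.

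**Figure D2:**
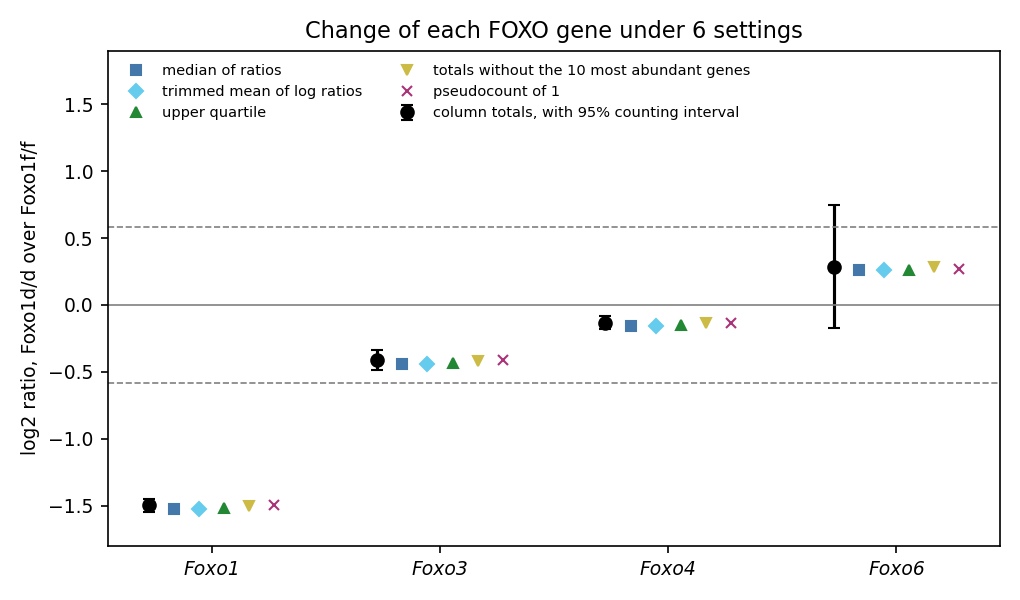
Log2 ratio of knockout to control for each FOXO gene (y axis) under column totals, shown with the 95% counting interval, and under 5 alternative settings; dashed lines mark 1.5-fold. Foxo1 lies near -1.50 under all 6, and the counting interval of Foxo6 spans 0.

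**Figure D3:**
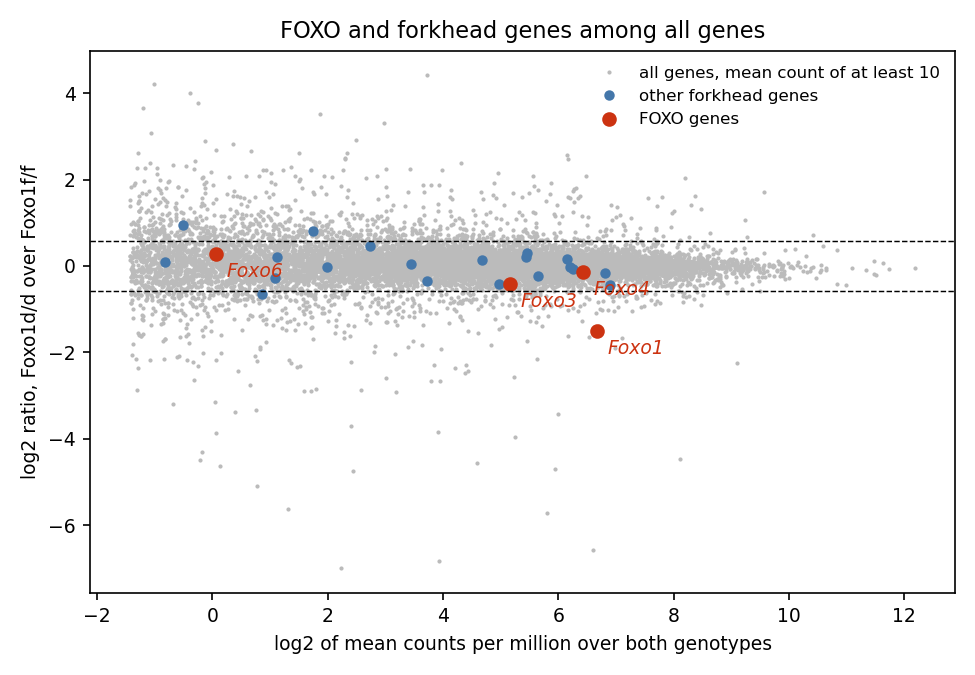
Log2 ratio of knockout to control (y axis) against the log2 of the mean CPM (x axis) for the well-counted genes; 1 of them, without a count in 1 genotype, is not drawn. FOXO genes are red, other forkhead genes blue, and dashed lines mark 1.5-fold; Foxo1 stands at -1.50 while Foxo3, Foxo4 and Foxo6 lie between the lines.

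Reads shared between paralogs could mix their counts, so the main transcripts were compared. The longest identical run was 38 bases, between Foxo1 and Foxo3, and the other 5 pairs shared runs of 17 to 21 bases. In the best ungapped match of any 90 bases, the length of a trimmed read, Foxo1 differed from Foxo3 at 9 bases, from Foxo6 at 11 and from Foxo4 at 12. Foxo3 and Foxo6 were the most alike, with 7 differences in 90 bases. RefSeq places the gene Gm38485 over Foxo3 and Gm52678 over Foxo6. Neither is among the genes counted, and whether the counting used strand is not given in the sources used here, so their reads cannot be told apart from those of Foxo3 and Foxo6.

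To set the members beside each other, CPM values were divided by exon length in kb. In Foxo1f/f, Foxo4 had the highest level at 26.0 CPM per kb, followed by Foxo1 at 17.4, Foxo3 at 5.41 and Foxo6 at 0.361. In Foxo1d/d the same order held, with 23.7 for Foxo4, 6.16 for Foxo1, 4.06 for Foxo3 and 0.440 for Foxo6. The counting intervals of neighbours in these orders did not overlap, but the order of Foxo4 and Foxo1 in the controls depended on the length used. With exon length within the RefSeq span, Foxo1 came first in Foxo1f/f, at 27.2 against 26.0 for Foxo4, and with coding length it was 77.1 against 59.7. In Foxo1d/d, Foxo4 came first with each of these lengths.

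**Figure D4:**
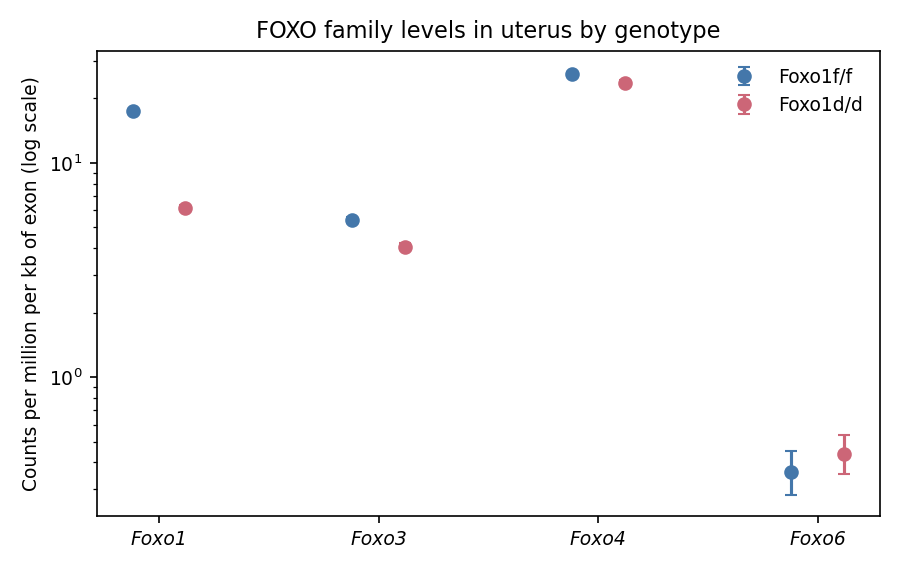
CPM per kb of exon (y axis, log scale) of each FOXO gene in Foxo1f/f (blue) and Foxo1d/d (red), from the authors' mean counts of 3 libraries per genotype; bars are 95% counting intervals, hidden by the points where narrow. Foxo1 is at 17.4 and 6.16, and Foxo4 is the highest in both genotypes with this exon length.

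The sum of the 4 genes was 49.1 CPM per kb in the controls and 34.3 CPM per kb after deletion, a log2 ratio of -0.52. Of the difference of -14.8 CPM per kb, Foxo1 made up -11.2, Foxo4 -2.29 and Foxo3 -1.35, while Foxo6 differed by 0.0785. Foxo3, Foxo4 and Foxo6 together were at 31.7 CPM per kb in the controls and 28.2 in Foxo1d/d, so their summed transcripts were not higher after the loss of Foxo1. Even at the upper bound of its counting interval, Foxo6 reached 0.538 CPM per kb in Foxo1d/d. The share of Foxo1 in the family's transcripts was 35.4% in the controls and 17.9% in Foxo1d/d, and that of Foxo4 was 52.8% and 68.9%. These shares depend on the length used. Within the RefSeq span Foxo1 held 46.1% and 25.4% and Foxo4 44.0% and 62.6%, with coding length Foxo4 held 37.9% and 55.7%, and without length Foxo1 held 53.3% and 31.8% and Foxo4 31.9% and 49.2%. The share of Foxo1 was lower and that of Foxo4 higher in Foxo1d/d with each of these lengths. Without length, the summed counts of Foxo3, Foxo4 and Foxo6 had a log2 ratio of -0.21 (-0.25 to -0.17).

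The forkhead family, to which FOXO genes belong, had 44 genes in the data by symbol, of which 24 were well counted and 7 had no count at all. Among the 20 of these outside the FOXO group, the median log2 ratio was 0.01, and 1 was past 1.5-fold lower and 2 higher, beside 3.63% and 5.57% of all well-counted genes. These counts are too few to compare with those shares. Foxd2 was the lowest at -0.66 (-1.01 to -0.31), followed by Foxp1, a regulator of lymphocytes and of heart and lung development, at -0.44 (-0.48 to -0.40). Foxj1, the master regulator of motile cilia, was the highest at 0.94 (0.36 to 1.54) from authors' means of 12.7 and 25.3 counts. Foxc1, which acts in mesenchyme and vessels, followed at 0.80 (0.54 to 1.06). None of these 20 had a ratio as low as that of Foxo1.

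Of 22 genes for the kinases, phosphatases and upstream signal of FOXO proteins, 21 were well counted, and 0 of 21 were past 1.5-fold in either direction, beside 3.63% lower and 5.57% higher among all well-counted genes. At such shares a count over 21 genes does not set a list apart. Their median log2 ratio was 0.01, beside 0.02 for all genes. The lowest were Sgk3, a kinase related to AKT, at -0.32 (-0.37 to -0.26) and Prkaa1, a catalytic subunit of AMPK, at -0.24 (-0.29 to -0.19). The highest were Pik3cb, a catalytic subunit of PI3K, at 0.29 (0.20 to 0.38) and Nlk, a kinase that phosphorylates FOXO1, at 0.23 (0.16 to 0.31). Of the 21 genes for nuclear export, 14-3-3 proteins, acetylation, methylation and ubiquitination, 1 was past 1.5-fold lower and 0 were higher, with a median of 0.02. Fbxo32, the ubiquitin ligase atrogin-1 and itself a known FOXO target, was at 383 CPM in the controls and 236 CPM after deletion, a log2 ratio of -0.70 (-0.73 to -0.67). Crebbp, an acetyltransferase, followed at -0.32 (-0.36 to -0.27). Skp2, a ubiquitin ligase subunit that acts on FOXO1, was the highest at 0.26 (0.16 to 0.36), and Sfn, the 14-3-3 protein sigma, was at 0.25 (0.06 to 0.44).

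A list of 34 genes known as FOXO targets in other tissues served as a readout, of which 32 were well counted. The list was written from general knowledge but with earlier results of these data known, so it is not independent of them. Of these 32, 29 had a log2 ratio below 0, beside 44.8% of all well-counted genes, and the median was -0.31. Past 1.5-fold, 7 of 32 were lower and 0 higher, beside 3.63% and 5.57% of all well-counted genes. Markers of smooth muscle and endothelium, described with the cell types, also had medians below 0, at -0.26 and -0.21, and their part in the levels of the target genes was not tested. Pdk4, which restrains the use of glucose by mitochondria, was the lowest at -1.55 (-1.65 to -1.44), and its level was 36.4 CPM in the controls and 12.4 CPM after deletion. Irs2, an adaptor of the insulin receptor, was at -1.08 (-1.22 to -0.93). Fasl, a death ligand, was the highest at 0.28 (0.02 to 0.55), followed by Tnfsf10, another death ligand, at 0.23 (0.18 to 0.28). Igfbp1, a marker of decidual cells in human endometrium, was too low to be among the 32, with 21 summed counts in the controls and 1 after deletion, a log2 ratio of -4.45 (-9.82 to -1.82), and was named after its values were seen.

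**Figure D5:**
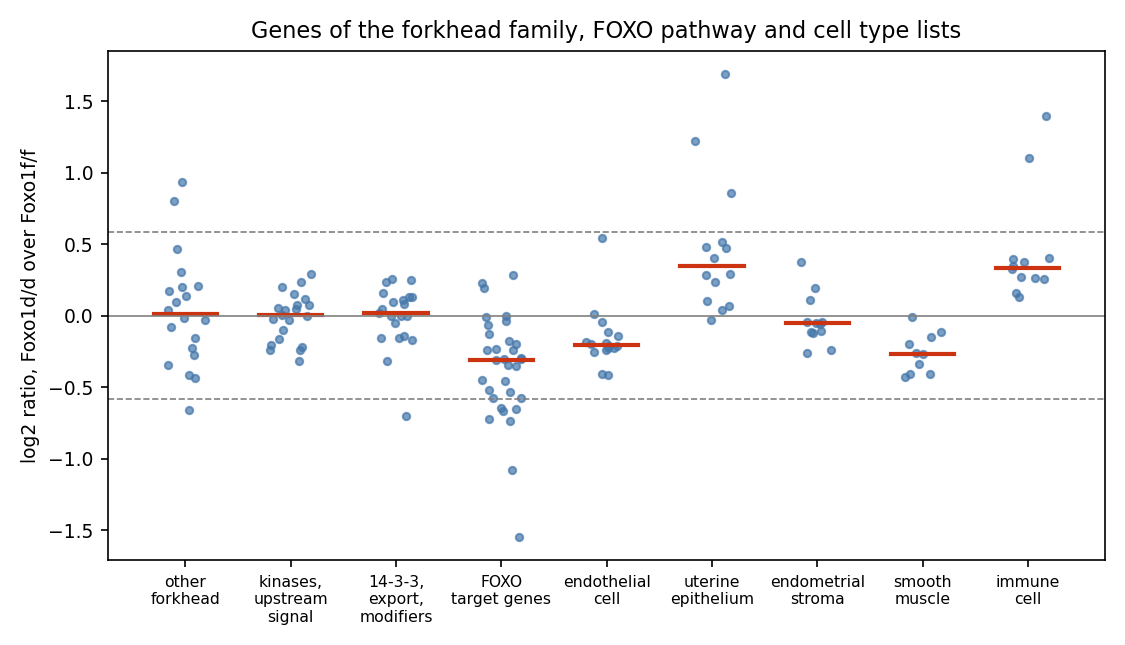
Log2 ratio of knockout to control (y axis) of each well-counted gene in the lists named on the x axis; red bars are medians and dashed lines mark 1.5-fold. The FOXO target genes have a median of -0.31, the lists of FOXO regulators medians of 0.01 and 0.02, the epithelial and immune markers medians of 0.35 and 0.34, and the endothelial, stromal and smooth muscle markers medians of -0.21, -0.05 and -0.26.

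The 3 nearest well-counted genes on each side of Foxo1 on chromosome 3 were described beside it. On the side before its start, Maml3, a coactivator of Notch, lay 163 kb away and had a log2 ratio of -0.55 (-0.64 to -0.46). Mgst2, a glutathione transferase, was past 1.5-fold higher at 0.73 (-0.07 to 1.56) on 22 and 38 summed counts, but its counting interval spanned 0. The gene 5031434O11Rik was past 1.5-fold lower at -0.64 (-0.91 to -0.36) on 276 and 185. Among all well-counted genes, 3.63% were past 1.5-fold lower and 5.57% higher. On the other side, Cog6, of the Golgi complex, was at -0.07 (-0.13 to -0.01), Lhfp at 0.00 (-0.05 to 0.05) and Nhlrc3 at -0.19 (-0.31 to -0.06). On each side of Foxo1, both genes whose counting intervals left out 0 were lower in Foxo1d/d. Whether a change along the chromosome had a part in the count of Foxo1 was not tested. Beside Foxo3, the 6 nearest genes included Sesn1, a stress-induced FOXO target 273 kb away, at -0.65 (-0.69 to -0.61), named after its values were seen; the other 5 lay between -0.37 and 0.23.

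The genes most like Foxo1 in their levels in both genotypes, by distance on the log2 scale over these 2 points, were Cyp1b1, Ggh, Galnt15, Pla2g7 and Oas2. Cyp1b1, an estrogen-metabolizing cytochrome P450, was nearest, at 151 CPM in the controls and 57.4 CPM in Foxo1d/d. Nearest to Foxo3 were Dact1 and Thbs2, to Foxo4 9430008C03Rik and Pld3, and to Foxo6 Scd4 and Slc16a8. The letters GTAAACA, which FOXO proteins bind, were searched on both strands in RefSeq windows of GRCm38 from 250 bases before to 50 after each gene start. They stood in 3.65% of 32851 windows and in neither that of Foxo1 nor that of Foxo3. The set of windows used here held none for Foxo4 or Foxo6, so these were not searched.

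Cell type markers describe the tissue beside these levels, and none of those measured was at 0 in either genotype. Pgr, whose locus drives Cre, was at 209 CPM in the controls and 240 CPM in Foxo1d/d, a log2 ratio of 0.20 (0.17 to 0.23). The 16 endothelial markers summed to 2762 CPM in the controls and 2462 CPM in Foxo1d/d, with 14 below 0 and a median log2 ratio of -0.21. Pecam1 had the most counts among them, at 373 and 319 CPM, Vwf and Sox18 were the lowest, both at -0.41, and Sox17 was the highest at 0.54, followed by Flt1 at 0.01. The 12 immune markers given here summed to 704 and 865 CPM, with a median of 0.34 and all 12 above 0. Lyz2, of macrophages and neutrophils, had the most counts at 243 and 293 CPM. Of the endothelial markers 0 of 16 were past 1.5-fold in either direction, beside 3.63% lower and 5.57% higher among all well-counted genes. At such shares a count over 16 genes does not set a list apart. Below 0 were 14 of 16 endothelial and 0 of 12 immune markers, beside 44.8% of all well-counted genes. Neither group was tested. The T cell genes Cd3d at 1.39 and Cd3e at 1.10 were past 1.5-fold higher, 2 of 12 beside 5.57% of all well-counted genes, while Cd68 at 0.13 and Csf1r at 0.16 were the lowest.

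Among the cells that express Pgr, the 14 epithelial markers summed to 931 CPM in the controls and 1187 CPM in Foxo1d/d, with a median of 0.35 and 3 of 14 past 1.5-fold higher, beside 5.57% of all well-counted genes. These were Ltf, an estrogen-responsive secreted protein, at 1.69, the keratin Krt19 at 1.22 and, named after its value was seen, the epithelial transcription factor Elf3 at 0.86. Cdh1 had the most counts, at 170 and 183 CPM, and Krt18 at -0.03 and Foxa2, the forkhead factor of uterine glands, at 0.04 were the lowest. Of the stromal and smooth muscle markers, 0 of 12 and 0 of 10 were past 1.5-fold in either direction. Among all well-counted genes these shares were 3.63% lower and 5.57% higher, so counts over so few genes do not set these lists apart. The 12 stromal markers summed to 12530 and 12307 CPM with a median of -0.05. Col3a1 had the most counts at 4758 and 4606 CPM, Pdgfra at -0.26 and Vim at -0.24 were the lowest, and Lum at 0.37 and Thy1 at 0.19 the highest. Below 0 were 1 of 14 epithelial, 9 of 12 stromal and 10 of 10 smooth muscle markers, beside 44.8% of all well-counted genes. The smooth muscle markers had a median of -0.26 and sums of 7736 and 6336 CPM. Myh11, which had the most counts at 2323 and 1724 CPM, was the lowest at -0.43, followed by Actg2 at -0.41, and Synpo2 at -0.01 and Myocd at -0.12 were the highest. The log2 ratios of Foxo3 and Foxo4, -0.41 and -0.13, stand beside these medians, and the part of cell composition in them was not tested.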

How the data were processed

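Uterine poly(A) RNA of 6 pools was sequenced by the authors as paired-end reads, trimmed at the 5′ end, mapped with STAR, cleared of duplicates with Picard and counted per RefSeq gene with HTSeq. The study's methods name mm10 and the submitters' processing notes mm9, and versions and strand settings are not given in the sources used here. The authors deposited the mean raw count of each gene for each genotype. All of these means came out whole after multiplication by 3, within 0.01, which gave the summed counts. The authors' deposited fold change, log2 CPM, p-value and FDR come from their own edgeR comparison and were not used.

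Groups followed the genotype labels. Mean counts were divided by their column totals, and log2 ratios were taken without a pseudocount. Counting intervals at 95% are exact Poisson for levels and conditional Clopper-Pearson for ratios of the summed counts. The planned test of single libraries could not be made on mean counts, so there is no p-value or SD. A gene was counted as past the threshold over 1.5-fold, among genes whose counts averaged 10 or more over both genotypes. Exon lengths and junction sequences came from GENCODE vM21 on GRCm38, taking for each gene the transcript with the longest coding sequence, and neighbours and promoter windows from RefSeq on GRCm38.p6. Of the 23420 genes, 22828 matched RefSeq by Entrez ID. Named singly were the 4 members, the 5 genes nearest to Foxo1 and the 2 nearest to each paralog, Pgr, the 3 neighbours on each side of Foxo1, and the 2 highest and 2 lowest of each list, with the most abundant marker. A gene outside this rule is marked as named after its values were seen. The result of 1 listed immune marker is not reported here. The members and lists were chosen with earlier results of these data known. Alternatives were 4 other scalings, a pseudocount of 1, other lengths, other count minimums and a 2-fold threshold. The scalings, the log2 ratios and the counting intervals of the ratios were tested on simulated counts, which held no spread between pools. The other steps were not tested in this way. Python 3.11.15, numpy 2.4.6, scipy 1.17.1, pandas 2.3.3 and matplotlib 3.10.9 were used.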

Additional observations from a re-analysis of the deposited data

How the results depend on the processing

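The log2 ratios of Foxo1, Foxo3, Foxo4 and Foxo6 stayed within their counting intervals and kept their sign under all 20 combinations of gene and alternative scaling or pseudocount. The log2 ratio of the summed FOXO transcripts was -0.49 with the longest transcript, -0.69 with coding length and -0.76 without length. With exon length within the RefSeq span, an alternative chosen after seeing the data, it was -0.64. The share of Foxo1 in Foxo1f/f and Foxo1d/d was 33.2% and 16.6% with the longest transcript, 48.9% and 27.9% with coding length, 53.3% and 31.8% without length, and 46.1% and 25.4% within the RefSeq span. These differences come from the lengths themselves, since the counts are the same. Genes past the threshold were 5.85% lower and 8.44% higher with a mean count of at least 1, and 1.46% lower and 2.10% higher at 2-fold. Of the other forkhead genes, 0 were lower and 1 was higher with a mean of at least 50, and 0 were lower and 0 higher at 2-fold. No paired analysis was possible because the replicate numbers 1 to 3 belong to libraries, and only the mean of each genotype was used. For the same reason the fit with a replicate block and the values with each library left out in turn were not run. The spread between pools was not analysed here and the authors' own test was not used, so no difference, that of Foxo4 included, was set against it, and Foxo6 is limited by its 74 and 94 summed counts.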

Other observations

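Forkhead genes below the minimum mean count of 10 were not part of any comparison, and these were picked after their values were seen. Foxi3, a forkhead factor of ectodermal placodes, had 0 summed counts over the 3 Foxo1f/f libraries and 22 over the 3 Foxo1d/d libraries. The lower limit of the counting interval of this ratio was 5.25-fold. How these counts were spread over the libraries was not analysed here. Foxr1 had 3 and 13 summed counts, a ratio of 4.15 with a counting interval of 1.14 to 22.7. Near the other paralogs, Guca2b, which encodes the peptide uroguanylin, lay 608 kb from Foxo6 and had 1868 summed counts in the controls and 306 after deletion, a log2 ratio of -2.67 (-2.85 to -2.50). It was also named after its values were seen, and the other 5 neighbours of Foxo6 lay between -0.24 and 0.84. The 6 neighbours of Foxo4 lay between -0.97 and 0.82.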
